A study of Mus musculus with 31 samples.

Results

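Transcripts of 10 neutrophil genes were followed in mouse mammary gland on lactation day 10, out of 55379 genes counted. The members were chosen by their known roles in neutrophils, with measured results of the same 31 glands already in view, so every value below is a description and no p-value is independent evidence about the list. They are the calprotectin genes *S100a8* and *S100a9*, the receptor genes *Csf3r* and *Cxcr2*, the granulocyte genes *Ngp*, *Camp*, *Retnlg* and *Mmp8*, and the primary granule genes *Mpo* and *Elane*. Only *S100a8* and *Csf3r* passed the filter on low counts, and the other 8 did not.

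The 31 glands came from C57BL/6J dams in a design that crossed diet with drug. The breeder diet held 4 mg/kg folic acid (FA) and the FA diet 24 mg/kg, and either was fed from before mating. Each dam was injected into the peritoneum once a day with saline or with 20 mg/kg fluoxetine, a selective serotonin reuptake inhibitor, from embryonic day 13 until tissue was taken on lactation day 10. The sample labels gave 8 dams of breeder diet + saline, 7 of breeder diet + fluoxetine, 8 of FA diet + saline and 8 of FA diet + fluoxetine, and each dam gave 1 library of polyadenylated RNA from whole gland. All dams were wild type and lactating.

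Neutrophils are short-lived white blood cells that mature in the bone marrow under granulocyte colony-stimulating factor and enter tissue toward chemokines such as CXCL1. Their granule proteins are made in sequence: myeloperoxidase and elastase in promyelocytes, and cathelicidin, neutrophilic granule protein and matrix metalloproteinase 8 in later precursors, while calprotectin fills the cytosol. In the mammary gland they are best known from mastitis and from early involution, while an uninflamed lactating gland holds few of them. In RNA from a whole gland, fewer cells of a type and less RNA per cell cannot be told apart.

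Most of the 10 genes were close to the limit of detection in nearly every gland, whereas *Csf3r* had 10 or more counts in 21 dams. The 10 genes together took 1097 of 691006927 counts, or 1.59 CPM (counts per 1e6 counts of the library). Per dam the sum ran from 0.339 to 6.59 CPM of the raw total, with a median of 1.21. The median dam had a count above 0 for 4 of the 10 genes, 14 dams had 3 or fewer, and 7 dams had 5 or more. A gene at 0 in a library may still have been present below 3 counts, which corresponded to 0.0833 to 0.195 CPM at depths of 15412542 to 36000439 counts, a limit that covers counting error only.

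**Figure D1:**
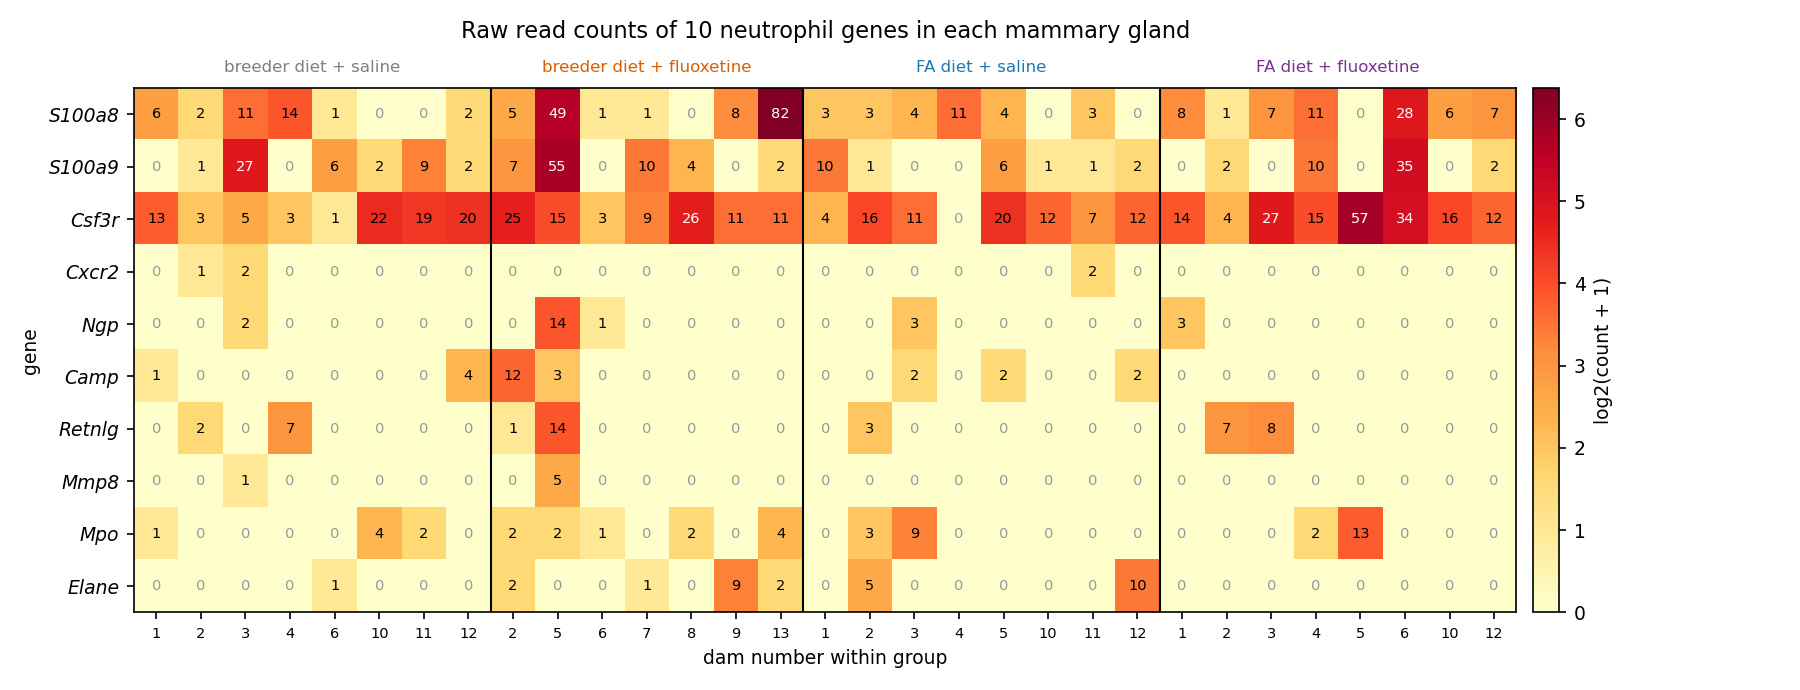
Raw read counts of the 10 genes (vertical axis) in each of 31 dams (horizontal axis, dam number within group), coloured by log2(count + 1) with the count printed in each cell. Dam 5 of breeder diet + fluoxetine stands out with 8 of 10 genes above 0, *Csf3r* is above 0 in 30 dams, and most other cells hold 0.

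The filter separated the genes at a narrow margin. It kept a gene with at least 0.448 CPM, equal to 10 counts at the median depth, in at least 7 dams. *S100a8* reached this in exactly 7 dams and *Csf3r* in 21, whereas *S100a9* reached it in 4, *Elane* in 2, *Ngp*, *Camp* and *Retnlg* in 1 each, and *Cxcr2*, *Mmp8* and *Mpo* in none. *S100a8* thus entered the test by the smallest number of dams allowed, and through the dams in which it was high.

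The promoters of the 3 members with the most counts are shown as a description, and a link between their letters and detection was not tested. Each sequence holds the 200 bases before the start of the canonical GENCODE transcript, read 5′ to 3′ on the gene's own strand from GRCm39. *S100a8* lies at chr3:90576085-90576284 on the plus strand, *S100a9* at chr3:90603072-90603271 on the minus strand and *Csf3r* at chr4:125918119-125918318 on the plus strand. Capitals mark matches on either strand to a C/EBP motif (TTNNGCAA), an ETS motif (ANNGGAAG) or a TATA box (TATAAA).
S100a8: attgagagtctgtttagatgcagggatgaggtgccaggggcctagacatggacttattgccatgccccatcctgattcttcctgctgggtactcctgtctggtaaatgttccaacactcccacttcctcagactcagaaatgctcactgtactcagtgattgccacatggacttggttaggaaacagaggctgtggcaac
S100a9: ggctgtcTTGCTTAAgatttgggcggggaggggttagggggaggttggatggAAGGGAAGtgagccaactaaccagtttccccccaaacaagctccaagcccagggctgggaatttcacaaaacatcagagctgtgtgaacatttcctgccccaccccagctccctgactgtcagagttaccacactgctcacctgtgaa
Csf3r: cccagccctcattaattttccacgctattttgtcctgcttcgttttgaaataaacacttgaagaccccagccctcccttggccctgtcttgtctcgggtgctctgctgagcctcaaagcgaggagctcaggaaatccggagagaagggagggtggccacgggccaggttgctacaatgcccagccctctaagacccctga

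C/EBP and ETS proteins are families of transcription factors that act in granulocyte development. In *S100a9* the C/EBP match lay 193 to 186 bases and the ETS match 148 to 141 bases before the start, and these matches did not overlap. None of these letters occurred in the windows of *S100a8* and *Csf3r*. Of all 10 members, 4 held the C/EBP letters in such a window (*S100a9*, *Ngp*, *Camp* and *Mmp8*), against 7.23% of 21757 protein-coding promoters of the same length. The ETS letters were in 3 members (*S100a9*, *Camp* and *Mpo*) and in 18.8% of all promoters, and the TATA box was in *Mmp8* and in 9.57% of all promoters. A match describes letters, not a bound site.

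*S100a8* (ENSMUSG00000056054, chromosome 3 from 90567118 to 90578128) encodes a subunit of calprotectin, a calcium- and zinc-binding protein abundant in the neutrophil cytosol. Its 278 counts were spread over 25 dams. The lowest, median and highest counts were 0, 2 and 14 in breeder diet + saline, 0, 5 and 82 in breeder diet + fluoxetine, 0, 3 and 11 in FA diet + saline, and 0, 7 and 28 in FA diet + fluoxetine. Every group held a dam without a count, and all 4 groups overlapped. The 2 highest dams, number 13 with 82 counts and number 5 with 49, both belonged to breeder diet + fluoxetine and together held 131 of the 278 counts. The other 29 dams shared 147.

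After TMM normalization, the mean level of *S100a8* on the breeder diet was 0.247 ± 0.304 CPM (SD, n = 8) with saline and 0.771 ± 1.06 CPM (SD, n = 7) with fluoxetine. On the FA diet it was 0.179 ± 0.172 CPM (SD, n = 8) with saline and 0.316 ± 0.311 CPM (SD, n = 8) with fluoxetine. The SD was larger than the mean in both breeder groups. Over both diets the median was 0.145 CPM in 16 saline dams and 0.262 CPM in 15 fluoxetine dams.

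*S100a9* (ENSMUSG00000056071, chromosome 3 from 90599931 to 90603071, on the opposite strand) encodes the partner subunit. It had 195 counts in 21 dams. The lowest, median and highest counts were 0, 2 and 27 in breeder diet + saline, 0, 4 and 55 in breeder diet + fluoxetine, 0, 1 and 10 in FA diet + saline, and 0, 1 and 35 in FA diet + fluoxetine. The groups overlapped, and a single dam lay far above the rest in breeder diet + fluoxetine (dam 5), FA diet + fluoxetine (dam 6) and breeder diet + saline (dam 3). They held 117 of the 195 counts, or 60.0%.

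Dams on the breeder diet had a mean *S100a9* level of 0.291 ± 0.502 CPM (SD, n = 8) when given saline and 0.458 ± 0.772 CPM (SD, n = 7) when given fluoxetine. Those on the FA diet had 0.132 ± 0.166 CPM (SD, n = 8) and 0.222 ± 0.426 CPM (SD, n = 8). In each group the SD was larger than the mean. The median was 0.0807 CPM with saline and 0.0867 CPM with fluoxetine, both under the level of 3 counts in most libraries.

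**Figure D2:**
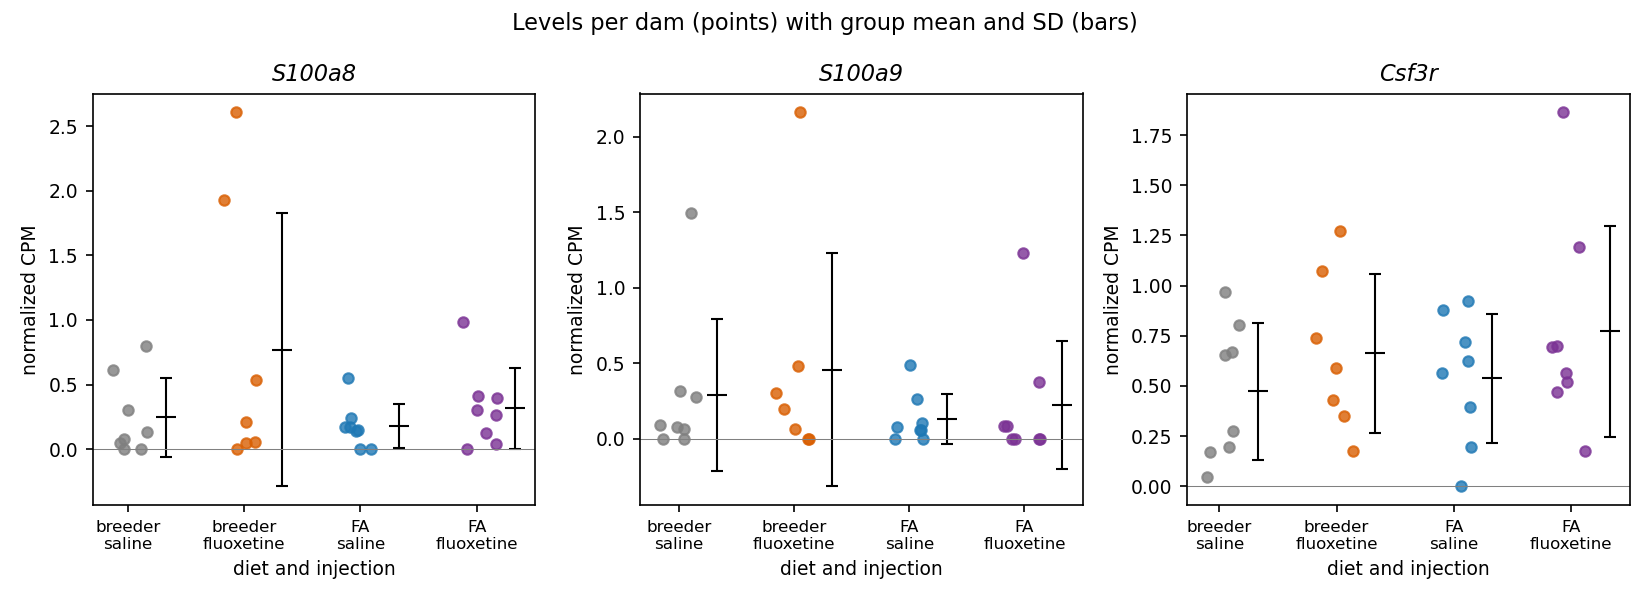
Normalized CPM (vertical axis) of *S100a8*, *S100a9* and *Csf3r* in each dam by diet and injection (horizontal axis), with points for dams and bars for the group mean and SD (n = 8, 7, 8 and 8). The higher means of *S100a8* and *S100a9* in breeder diet + fluoxetine come with 1 or 2 dams far above the others, and all groups overlap.

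The calprotectin genes were not always detected together. Both had a count above 0 in 16 dams, *S100a8* alone in 9, *S100a9* alone in 5 and neither in 1. Of the 5 dams with at least 20 counts of the pair, 4 held at least 10 of each subunit. The share of *S100a9* in the pair was 52.9% (95% Wilson interval 43.4 to 62.2) in dam 5 of breeder diet + fluoxetine. It was 55.6% (43.3 to 67.2) in dam 6 and 47.6% (28.3 to 67.6) in dam 4 of FA diet + fluoxetine, and 71.1% (55.2 to 83.0) in dam 3 of breeder diet + saline.

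The exception was dam 13 of breeder diet + fluoxetine. It had the most *S100a8* of any dam, 82 counts, with 2 counts of *S100a9*, a share of 2.38% (0.655 to 8.27). This interval did not overlap that of any of the other 4 dams, on counting error alone. The same dam had no count of *Ngp*, *Camp*, *Retnlg*, *Mmp8* or *Cxcr2*, 11 of *Csf3r*, 4 of *Mpo* and 2 of *Elane*. In a smaller way, dam 4 of breeder diet + saline had 14 counts of *S100a8* and dam 4 of FA diet + saline had 11, both with no *S100a9*. Dam 13 also had the lowest summed level of 7 luminal epithelial genes after dam 3 of FA diet + fluoxetine, 161245 CPM against a median of 364583, and the part of this in its *S100a8* count was not tested.

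**Figure D3:**
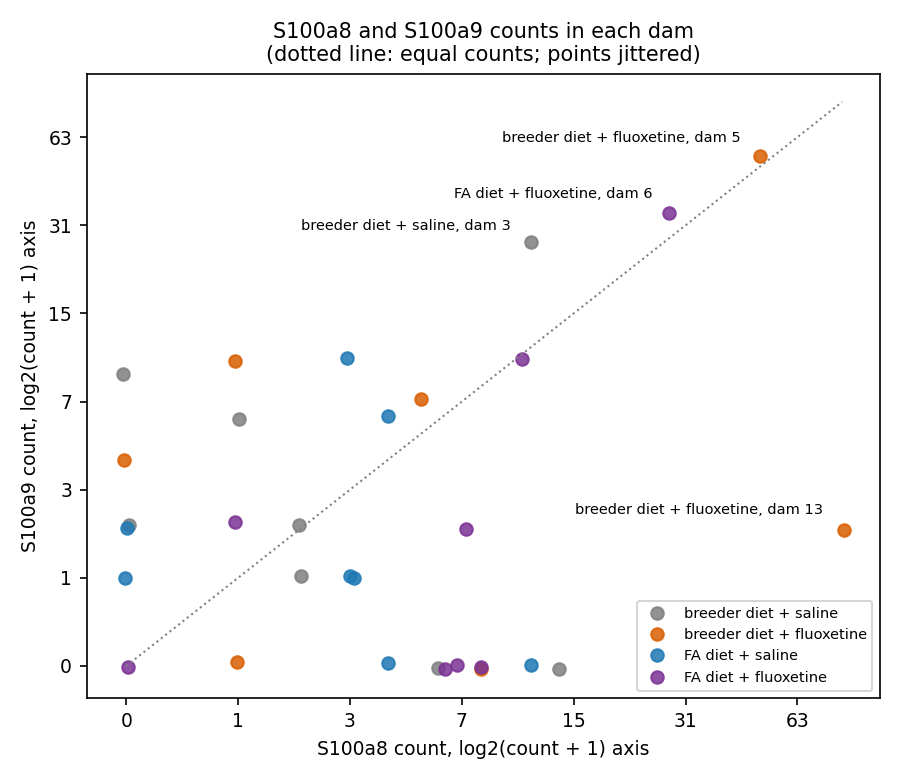
Counts of *S100a8* (horizontal axis) and *S100a9* (vertical axis) in each dam on log2(count + 1) axes, coloured by group, with a dotted line of equal counts and slight jitter. Dams 5 of breeder diet + fluoxetine and 6 of FA diet + fluoxetine lie near the line, and dam 13 of breeder diet + fluoxetine lies far below it with 82 and 2 counts.

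Across 31 dams, log2 CPM of *S100a8* and *S100a9* had a Pearson r of 0.23 (two-sided permutation test, 100000 resamples, p = 0.218, adjusted p = 0.751 over 6 values) and a Spearman rho of -0.0020 (p = 0.992, adjusted p = 0.992). Without the 2 dams farthest from the *S100a8* median, r was 0.096 (permutation p = 0.622). *S100a8* and *Csf3r* had an r of -0.16 (permutation p = 0.376, adjusted p = 0.751) and a rho of -0.20 (p = 0.283, adjusted p = 0.751), and r was -0.19 without the same dams. *S100a9* and *Csf3r* had an r of 0.077 (permutation p = 0.682, adjusted p = 0.894) and a rho of 0.060 (p = 0.745, adjusted p = 0.894), and r was 0.14 without the 2 farthest dams. None of these 3 pairs passed the threshold.

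*Csf3r* (ENSMUSG00000028859, chromosome 4 from 125918262 to 125938236) encodes the receptor of granulocyte colony-stimulating factor, which drives neutrophil production and survival. It was the most widely detected member, with 447 counts in 30 dams. The lowest, median and highest counts were 1, 9 and 22 in breeder diet + saline, 3, 11 and 26 in breeder diet + fluoxetine, 0, 11.5 and 20 in FA diet + saline, and 4, 15.5 and 57 in FA diet + fluoxetine. The groups overlapped, and 3 dams of FA diet + fluoxetine, with 27, 34 and 57 counts, lay above every dam of the other groups in raw counts. On normalized CPM the dam with 57 counts, at 1.86 CPM, alone did so. Its highest dam held 12.8% of its counts, against 29.5% for *S100a8* and 28.2% for *S100a9*, so *Csf3r* was spread more evenly.

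*Csf3r* averaged 0.474 ± 0.341 CPM (SD, n = 8) with saline and 0.662 ± 0.395 CPM (SD, n = 7) with fluoxetine in dams fed the breeder diet. In dams fed the FA diet it averaged 0.537 ± 0.323 CPM (SD, n = 8) with saline and 0.773 ± 0.526 CPM (SD, n = 8) with fluoxetine. The highest dam was number 5 of FA diet + fluoxetine with 57 counts, a dam without any count of *S100a8* or *S100a9*. Per kilobase of the canonical transcript the mean level of *Csf3r* lay below those of both calprotectin genes. The mean was 0.742 CPM per kilobase for *S100a8*, 0.472 for *S100a9* and 0.174 for *Csf3r*, and the other 7 members lay between 0.00335 for *Mmp8* and 0.0932 for *Retnlg*.

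*Cxcr2* (ENSMUSG00000026180, chromosome 1 from 74193150 to 74200405) encodes the chemokine receptor through which mature neutrophils sense CXCL1. It had 5 counts in all, 2 in dam 3 and 1 in dam 2 of breeder diet + saline and 2 in dam 11 of FA diet + saline. All 15 fluoxetine dams were at 0, but no saline dam reached 3 counts either, so no difference could be detected at this depth.

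The granulocyte genes *Ngp*, *Camp*, *Retnlg* and *Mmp8* had no count in most libraries. None of the 4 had a count in 16 dams, 1 did in 11 dams, 2 did in 3 dams, and all 4 did in 1 dam, number 5 of breeder diet + fluoxetine. That dam held 14 of 23 counts of *Ngp*, which encodes neutrophilic granule protein, 14 of 42 of *Retnlg*, a resistin-like secreted protein of granulocytes, and 5 of 6 of *Mmp8*, the neutrophil collagenase. *Mmp8* was otherwise seen as 1 count in dam 3 of breeder diet + saline. The pattern in dam 5 thus covered both calprotectin genes and all 4 granulocyte genes at once.

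*Ngp* (ENSMUSG00000032484) and *Camp* (ENSMUSG00000038357) lie on chromosome 9, from 110248815 to 110252086 and from 109676442 to 109678685. *Ngp* was also counted in dam 3 of FA diet + saline and dam 1 of FA diet + fluoxetine with 3 counts each. It had 2 counts in dam 3 of breeder diet + saline and a single count in another. *Camp*, which encodes the antimicrobial peptide cathelicidin, had 26 counts in 7 dams. Dam 2 of breeder diet + fluoxetine held 12 of them and dam 12 of breeder diet + saline 4, and the others had 3 or fewer. No dam of FA diet + fluoxetine had a count of *Camp*.

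*Retnlg* (ENSMUSG00000022651) lies on chromosome 16 from 48692547 to 48694862, and *Mmp8* (ENSMUSG00000005800) on chromosome 9 from 7558457 to 7568487. Besides dam 5, *Retnlg* reached 8 counts in dam 3 and 7 in dam 2 of FA diet + fluoxetine and 7 in dam 4 of breeder diet + saline. These dams had no count of *Ngp*, *Camp* or *Mmp8*, so the granulocyte genes were mostly seen one at a time. Summed over dams, *Retnlg* had 9, 15, 3 and 15 counts in breeder diet + saline, breeder diet + fluoxetine, FA diet + saline and FA diet + fluoxetine.

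The primary granule genes were each seen in a minority of dams. *Mpo* (ENSMUSG00000009350, chromosome 11 from 87684407 to 87695239) encodes myeloperoxidase and had 45 counts in 12 dams. Its highest counts were 13 in dam 5 of FA diet + fluoxetine, the dam highest in *Csf3r*, and 9 in dam 3 of FA diet + saline. No other dam had more than 4, and dam 5 of breeder diet + fluoxetine had 2. An annotated antisense gene overlaps *Mpo* and the strand option of the counting is not given in the sources used here, so the *Mpo* counts are uncertain.

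*Elane* (ENSMUSG00000020125, chromosome 10 from 79722081 to 79724051) encodes neutrophil elastase and had 30 counts in 7 dams. It reached 10 counts in dam 12 and 5 in dam 2 of FA diet + saline and 9 in dam 9 of breeder diet + fluoxetine, and 2 or fewer in the others. Of the 8 dams of FA diet + fluoxetine none had a count. *Mpo* and *Elane* were both above 0 in 3 dams and exactly 1 of them in 13. Detection of these promyelocyte genes was therefore scattered over the groups.

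The effect of fluoxetine was tested for the 2 members past the filter in a fit over 14362 genes. Neither was called at an FDR of 10% by edgeR's quasi-likelihood test after Benjamini-Hochberg adjustment, against 0.0209% of all genes tested. At an unadjusted p of 0.05 or below neither passed, against 9.92% of all genes. Neither was called by the likelihood ratio test, which called 0.313% of all genes, or by DESeq2, which called 0.487%. The log2 fold change of *S100a8* was 1.24 (standard error 0.65, adjusted p = 0.529) with an approximate 95% interval from -0.030 to 2.52. That of *Csf3r* was 0.49 (standard error 0.40, adjusted p = 0.707) with an interval from -0.29 to 1.28. The median over all genes tested was 0.019, and 53.5% of them had a higher fitted value with fluoxetine. Each dam was also dropped in turn, and in 4 of those 26 fits, 3 of them lacking a fluoxetine dam on the breeder diet (number 6, 7 or 8) and 1 lacking number 5 of FA diet + fluoxetine, *S100a8* had an unadjusted p of 0.05 or below, with adjusted p values of 0.432 to 0.570.

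The size of the *S100a8* value rested on the 2 dams named above. With dam 13 of breeder diet + fluoxetine left out it was 0.88 (standard error 0.66), and without dam 5 it was 1.04 (standard error 0.67). Without both, an alternative chosen after seeing the data, it was 0.14 (standard error 0.68, adjusted p = 0.966 by edgeR's quasi-likelihood test). Dam 3 of FA diet + fluoxetine had a TMM factor of 3.04 and stood apart from all other libraries, and without it the value was 1.31 for *S100a8* and 0.52 for *Csf3r*.

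For the FA diet against the breeder diet, neither member was called by edgeR's quasi-likelihood test (adjusted over all genes), against 0% of all genes, and neither had an unadjusted p of 0.05 or below, against 5.08%. The likelihood ratio test and DESeq2 called neither, and each called 0% of all genes. The log2 fold change was -0.86 for *S100a8* (standard error 0.65, adjusted p = 0.943, interval -2.14 to 0.42) and 0.19 for *Csf3r* (standard error 0.40, adjusted p = 0.990, interval -0.59 to 0.97). For *S100a8* the value stayed negative without dam 5 (-0.66) or dam 13 (-0.49) of breeder diet + fluoxetine alone. Without both it was 0.24 (standard error 0.67). That choice was made after seeing the data and removes the highest dams of 1 group, which by itself moves the value upward.

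The interaction asked whether the fluoxetine effect on the FA diet differed from that on the breeder diet. Neither member was called, against 0% of all genes, and neither had an unadjusted p of 0.05 or below, against 3.84%, and the likelihood ratio test and DESeq2 called neither member and 0% of all genes. The value was -0.90 (standard error 1.31, adjusted p = 0.978) for *S100a8* and 0.072 (standard error 0.80, adjusted p = 0.997) for *Csf3r*. For *S100a8* it turned to 1.31 (standard error 1.36) without dams 5 and 13 of breeder diet + fluoxetine, a choice made after seeing the data. With 1 dam left out at a time it stayed negative, from -1.12 to -0.17 over 26 fits.

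**Figure D4:**
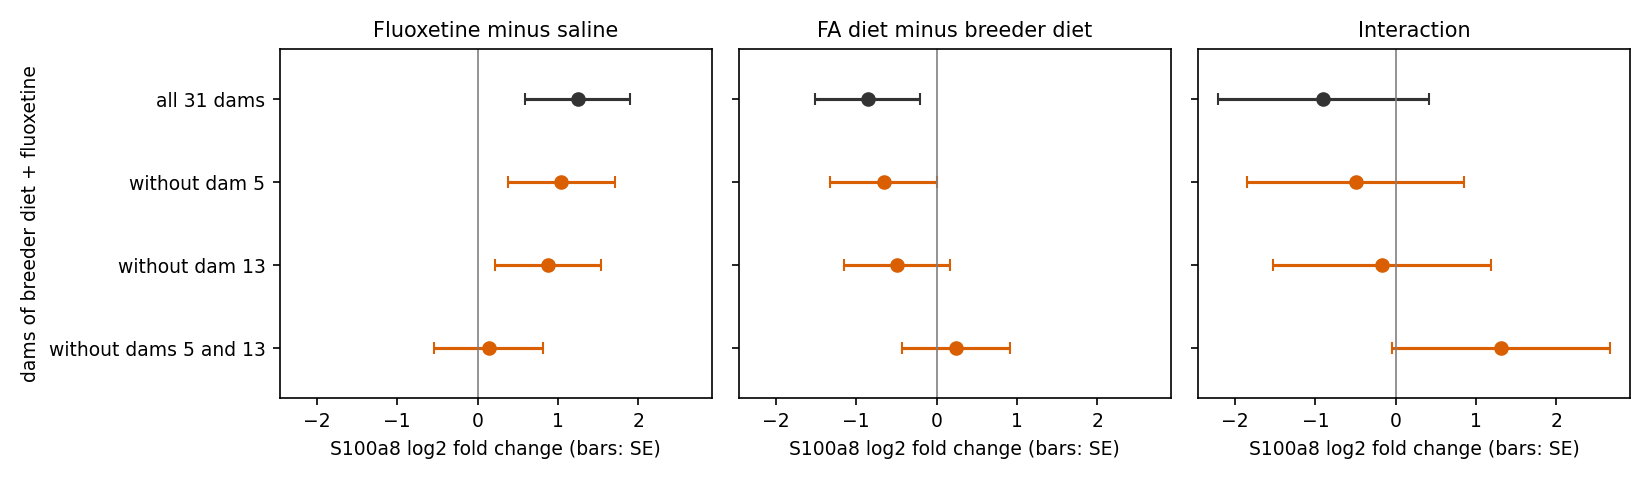
Log2 fold change of *S100a8* with its standard error (horizontal axis) for fluoxetine, FA and their interaction, fitted with all 31 dams and without dams 5, 13 or both of breeder diet + fluoxetine (vertical axis). For fluoxetine the value falls from 1.24 to 0.14, and for FA and the interaction its sign turns when both dams are left out.

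A fit without any filter gave values for all 10 members among 29436 genes with a count. None was called for fluoxetine, FA or the interaction at an FDR of 10%, against 0.0034%, 0% and 0% of all genes. An unadjusted p of 0.05 or below was reached by *Cxcr2* for fluoxetine (11.1% of all genes), by *Camp* and *Mmp8* for FA (8.68%) and by *Camp* and *Elane* for the interaction (7.35%). These 4 genes had 5, 26, 6 and 30 counts in all, so their fitted fold changes depend on the handling of zeros and are not given. *S100a9*, the member with most counts among those outside the filter, had log2 fold changes of 0.69 (standard error 0.78, adjusted p = 0.950) for fluoxetine, -1.08 (standard error 0.78, adjusted p = 0.857) for FA and 0.050 (standard error 1.28, adjusted p = 0.9999) for the interaction.

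Other genes of neutrophils were counted from lists named by role. Of 20 further receptor and adhesion genes, 10 passed the filter, 7 of these were higher with fluoxetine with a median log2 fold change of 0.21, and none had an unadjusted p of 0.05 or below. Over all genes tested, 53.5% were higher with fluoxetine, the median was 0.019, 0.0209% were called and 9.92% had an unadjusted p of 0.05 or below, and the counts of the lists stand beside these shares. *Fpr1*, *Clec4e* and *Cxcr1*, which mature neutrophils use to sense formyl peptides, dying cells and chemokines, had no count in any dam. Others of this list were counted in most or all dams: *Cd177* had 416 counts in 27 dams, *Itgb2l* 308 in 28 and *Ltb4r1* 1283 in 31. *Ly6g* had 9 counts in 4 dams. Totals over the list ran from 0 to 2028 counts, with a median of 195. Of 10 further primary granule and precursor genes 3 passed the filter, and totals over the list ran from 0 to 33650 counts. *Prtn3* of that list, which did not pass, had 217 counts in 16 dams, 149 of them in dam 3 of FA diet + fluoxetine. *Ctsg*, *Ms4a3* and *Fcnb* were at 0 in all dams. *Stfa2l1* was at 0 as well.

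Of 20 further granule and cytosol genes, 13 passed the filter, and 12 of them were higher with fluoxetine with a median log2 fold change of 0.32. None was called, and 3 had an unadjusted p of 0.05 or below, against 53.5% higher and 9.92% at that p over all genes. Without dam 3 of FA diet + fluoxetine, a choice made after seeing the data, 10 of the 13 were higher, with a median of 0.13. *Cyba*, a subunit of the oxidase of phagocytes that many other cells also express, was at 0.87 in log2 fold change (standard error 0.23, adjusted p = 0.230 by edgeR). *Mmp9*, the gelatinase of tertiary granules, had 1.5 (standard error 0.56, adjusted p = 0.409), and 350 of its 563 counts lay in that dam, without which it had 0.72 (standard error 0.47, adjusted p = 0.652). *Lcn2*, a siderophore-binding protein that mammary epithelium also makes, had 0.60 (standard error 0.22, adjusted p = 0.409). For the interaction, *Lcn2* had -1.02 (standard error 0.45, adjusted p = 0.977) and lactoferrin (*Ltf*), a milk protein as well as a granule protein, -0.89 (standard error 0.38, adjusted p = 0.977).

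*Lcn2* and *Ltf* differed from the members in abundance. Their mean levels were 587 and 257 CPM per kilobase of transcript, against at most 0.742 for any member. Both were highest in dam 13 of breeder diet + fluoxetine, the dam with 82 counts of *S100a8*, at 1788 CPM for *Lcn2* and 2530 CPM for *Ltf*. *Mmp9* was highest in dam 3 of FA diet + fluoxetine with 350 of its 563 counts. That dam had 7 counts of *S100a8* and none of *S100a9* or *Ly6g*. It was also the highest of all dams in *Prtn3* (149 of 217 counts), *Itgam* (208 of 447) and *Il1r2* (46 of 150), and the lowest in *Lcn2* and *Ltf*. The summed level of the further primary granule and precursor genes was highest there too, at 155 CPM against 108 in the next dam.

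Signals that bring neutrophils into tissue were low too. Of 17 chemoattractant and growth factor genes 4 passed the filter, none was called, and *Il23a* alone had an unadjusted p of 0.05 or below for fluoxetine, at a log2 value of 0.76 (standard error 0.34, adjusted p = 0.472 by edgeR). *Cxcl3*, *Cxcl5*, *Csf2* and *Il17a* had no count in any dam. The summed level of the list was highest in dam 5 of breeder diet + fluoxetine at 12 CPM, against 9.21 in the next dam and a median of 4.63. In that dam *Cxcl1*, the ligand of CXCR2, had 153 counts, 6.02 CPM against a median of 0.619 in the other 30 dams, and *Csf3*, the ligand of the *Csf3r* product, had 63 counts, 2.48 CPM against 1.18. The next highest dam was at 1.45 CPM for *Cxcl1* and 2.15 CPM for *Csf3*, so *Cxcl1* alone lay far above every other dam. *Cxcl1* and *Csf3* were singled out after their values were seen.

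Of 6 genes for receptors and partners of calprotectin all passed the filter, 4 were higher with fluoxetine, against 53.5% of all genes, and none was called. *Ager*, the receptor for advanced glycation end products, had a log2 value of 0.80 (standard error 0.33, adjusted p = 0.433 by edgeR), and *Myd88*, an adaptor of Toll-like receptors, 0.22 (standard error 0.11, adjusted p = 0.492). Of 7 endothelial capture genes 5 passed the filter, 3 of them were higher with fluoxetine, and none had an unadjusted p of 0.05 or below.

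Markers of other tissues were high in some dams, both with and without many read counts of the 10 genes. The summed level of 5 skeletal muscle genes was 5553 CPM in dam 5 of breeder diet + fluoxetine, the highest of all dams. It was 3490 in the next, with a median of 220. The part of muscle or of tissue taken with it in that dam's read counts of the 10 genes was not tested. Dam 6 of FA diet + fluoxetine, with 28 and 35 counts of *S100a8* and *S100a9*, had 2 CPM of the same genes. The dam next highest in muscle genes, number 4 of FA diet + saline, had a count for 1 member only, at 0.481 CPM of the raw total. Dam 10 of FA diet + fluoxetine, with 3210 CPM of muscle genes, had 0.843 CPM of the members. Across all dams the muscle sum ranged from 0.651 to 5553 CPM.

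The summed level of 11 macrophage and monocyte genes was 214 CPM in dam 3 of FA diet + fluoxetine, against 42.1 to 76.0 CPM in all other dams. Of that list 10 genes passed the filter, and all 10 had a higher fitted value with fluoxetine, against 53.5% of all genes, with a median log2 fold change of 0.18. Without that dam 4 of the 10 were higher, with a median of -0.070. The median summed level was 58.2 CPM with saline and 60.5 CPM with fluoxetine among dams given the breeder diet, and 63.1 and 57.0 CPM among those given the FA diet. *Mrc1*, the mannose receptor, had a log2 value of 0.86 (standard error 0.37, adjusted p = 0.461 by edgeR), and 1537 of its 2687 counts lay in dam 3 of FA diet + fluoxetine, at 26.9 CPM against at most 2.98 CPM elsewhere. Without that dam it had 0.097 (standard error 0.20, adjusted p = 0.918). *Marco* was at 0 in every dam. Dam 3 of FA diet + fluoxetine had the lowest summed level of luminal epithelial genes, 29166 CPM. It held 42 of the 1097 counts of the 10 neutrophil genes, 27 of them *Csf3r*. The summed level of 5 red blood cell genes ranged from 32.7 to 281 CPM, and was 119 CPM in dam 5 and 45.1 CPM in dam 13 of breeder diet + fluoxetine.

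Markers of other immune cells and of lymph node passed the filter to differing degrees. Of all 55379 genes counted 14362 passed it, and 29436 had at least 1 count. The filter was passed by 0 of 5 eosinophil and basophil genes, 1 of 8 T and NK cell genes, 2 of 4 B cell genes, 3 of 6 mast cell genes and 0 of 5 lymph node genes, against 10 of 11 macrophage and monocyte genes and 7 of 7 luminal epithelial genes. It was passed by 2 of the 10 neutrophil genes. Within breeder diet + fluoxetine, dam 5 had the highest sum of lymph node (1.02 CPM), mast cell (3.58), T and NK cell (2.52) and macrophage and monocyte genes (73.9). It was not the highest there for B cell, eosinophil and basophil, platelet or red blood cell genes. Of the blood cell markers, the hemoglobin gene *Hba-a2* had a log2 value of 0.66 for fluoxetine (standard error 0.32, adjusted p = 0.502 by edgeR) and the platelet integrin gene *Itga2b* 0.60 (standard error 0.23, adjusted p = 0.417). For the FA diet *Itga2b* had -0.70 (standard error 0.23, adjusted p = 0.933 by edgeR).

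**Figure D5:**
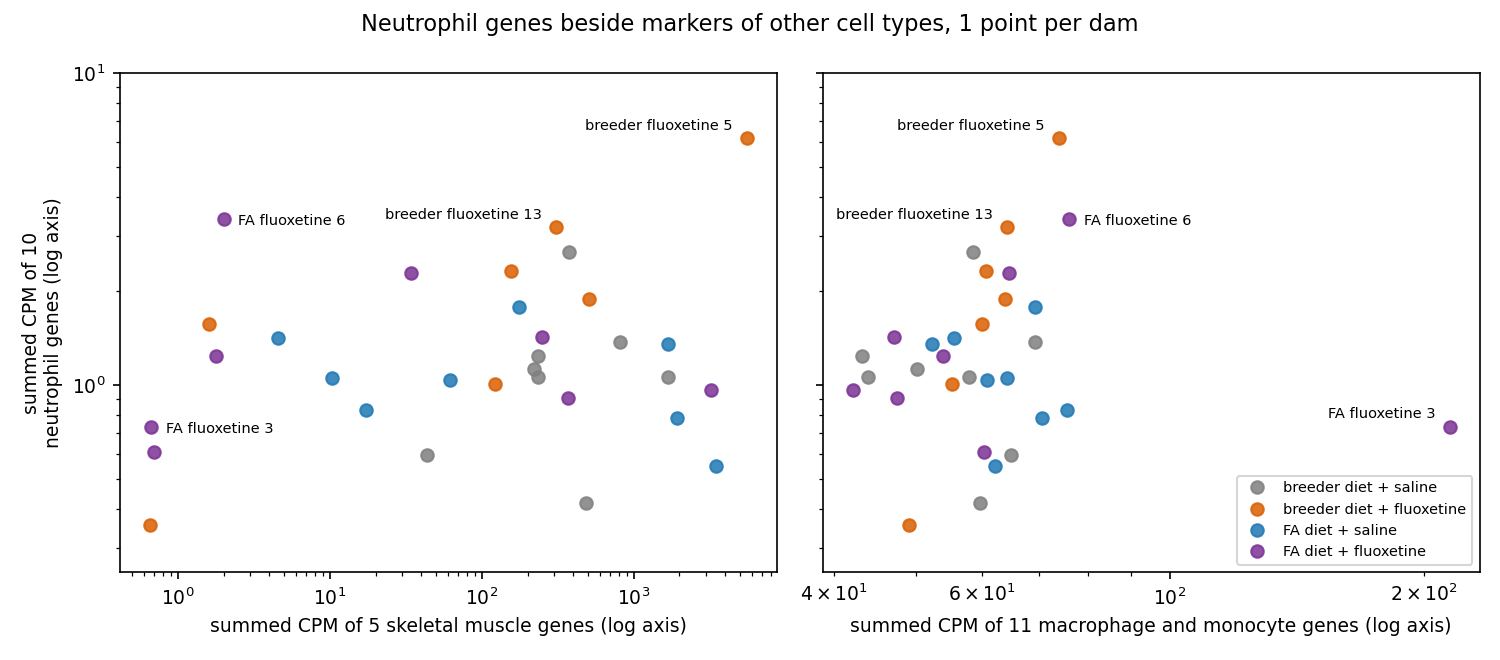
Summed normalized CPM of the 10 neutrophil genes (vertical log axis) against that of 5 skeletal muscle genes and of 11 macrophage and monocyte genes (horizontal log axes), with 1 point per dam coloured by group. Dam 5 of breeder diet + fluoxetine is highest in neutrophil and in muscle genes, and dam 3 of FA diet + fluoxetine is highest in macrophage genes.

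The genes whose log2 CPM ranked most like that of *S100a8* over the 31 dams, among 14361 others tested, were *C9* (Spearman rho 0.65), *Cnrip1* (0.61), *Spc24* (0.60), *Prx* (0.58) and *Padi1* (0.57). For *Csf3r* they were *Ints6l* (0.75), *Msh3* (0.67), *4933412E12Rik* (0.65), *Dync1h1* (0.65) and *Cspp1* (0.65). None of these genes was on any of the neutrophil lists. The values describe the top of a ranking across libraries that differ in depth and makeup, and carry no test.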

How the data were processed

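The authors extracted total RNA from whole mammary gland, prepared libraries by capture of polyadenylated RNA and sequenced them in paired ends on a NovaSeq. Reads were checked with FastQC 0.11.7, trimmed with Trim Galore 0.4.4, mapped to GRCm39 with Hisat2 and counted by htseq-count (intersection-nonempty), and the authors deposited raw counts per Ensembl gene for each dam. The annotation release and the strand option are not given in the sources used here. Symbols, positions and transcript lengths were taken from GENCODE vM39, which lacked 667 of 55379 genes.

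Low genes were removed by filterByExpr on the groups, libraries were normalized by TMM, and 4 group means were fitted in edgeR 4.0.16 (R 4.3.3). The contrasts for fluoxetine, for FA and for the interaction were tested with the robust quasi-likelihood test, with Benjamini-Hochberg adjustment over 14362 genes and an FDR of 10%. The standard error is the log2 fold change over the square root of F. CPM are TMM-normalized, sums over the 10 genes per dam use raw totals where so stated, and logs use a prior count of 2. Depth was 15412542 to 36000439 counts. At the counts of these genes, depth as well as the spread between dams limits precision. No library repeated another: within groups, chi-square was at least 14.5 times its degrees of freedom. The procedure was tested on simulated data.

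Groups follow the sample labels; the sizes of the fluoxetine groups are the other way round in the methods of the study. The members and lists were chosen with earlier results of these data known. Named are all 10 members, genes of the lists described with an unadjusted p of 0.05 or below (at most 3, not for every contrast or list) or at 0, *Cxcl1* and *Csf3*, singled out after their values were seen, and the 5 genes most like *S100a8* and *Csf3r* by Spearman correlation. *Cd177*, *Itgb2l*, *Ltb4r1* and *Ly6g* are named beside the receptor genes at 0, also after their values were seen. The same holds for *Prtn3*, *Itgam* and *Il1r2*. The alternatives were the likelihood ratio test, DESeq2 1.42.0, no filter, at least 1 CPM in 7 libraries, RLE normalization, leaving out the 20 most abundant genes, a replicate block and each dam left out in turn.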

Additional observations from a re-analysis of the deposited data

Results flagged for a closer look

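Single dams lay far from the rest of their group in 18 of 28 combinations of gene and group in which a dam reached 3 counts, always as the highest dam, by Dixon's test of the gap to the nearest dam at its 95% critical value. The critical values assume normally distributed values, for which chance flags about 1 in 20 groups. Counts with many zeros are not normally distributed, so that rate does not hold here. Dam 5 of breeder diet + fluoxetine stood apart in 4 genes, at 2.16 CPM of *S100a9*, 0.551 CPM of *Ngp*, 0.551 CPM of *Retnlg* and 0.197 CPM of *Mmp8*. Dam 6 of FA diet + fluoxetine stood apart at 0.983 CPM of *S100a8* and 1.23 CPM of *S100a9*. In *S100a8*, dams 5 and 13 of breeder diet + fluoxetine were both high and neither stood apart from the other.

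The other 12 each concerned 1 gene in 1 dam. In breeder diet + saline these were dam 3 (*S100a9*, 1.5 CPM), dam 12 (*Camp*, 0.161 CPM), dam 4 (*Retnlg*, 0.401 CPM) and dam 10 (*Mpo*, 0.176 CPM). In breeder diet + fluoxetine they were dam 2 (*Camp*, 0.514 CPM) and dam 9 (*Elane*, 0.605 CPM). In FA diet + saline they were dam 4 (*S100a8*, 0.549 CPM), dam 3 (*Ngp*, 0.107 CPM) and dam 2 (*Retnlg*, 0.173 CPM). In FA diet + fluoxetine they were dam 1 (*Ngp*, 0.149 CPM), dam 2 (*Retnlg*, 0.304 CPM) and dam 5 (*Mpo*, 0.425 CPM).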

How the results depend on the processing

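No member was called for fluoxetine, FA or the interaction under any alternative run, and a filter at 1 CPM in 7 libraries left no member to test. With each dam left out, the log2 fold change of *S100a8* for fluoxetine ranged from 0.88 to 1.35, for FA from -0.97 to -0.49 and for the interaction from -1.12 to -0.17, over the 26 fits in which it passed the filter. The fits in which it failed each lacked a dam with 11 or more counts of it, so these ranges do not cover them. *Csf3r* ranged from 0.34 to 0.61 for fluoxetine, from 0.026 to 0.31 for FA and from -0.26 to 0.31 for the interaction, whose sign turned in 11 of 31 fits. Without dams 5 and 13 of breeder diet + fluoxetine, chosen after seeing the data, *S100a8* turned to 0.24 for FA and 1.31 for the interaction, and *Csf3r* to -0.092 for the interaction.

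The replicate block, a term for the dam number that recurs between groups, gave *S100a8* a log2 fold change of 1.39 (standard error 0.91) and *Csf3r* 0.51 for fluoxetine, with 0 members called. Over all 14362 genes tested it called 0 for fluoxetine, against 3 in the main fit. Same-numbered dams of different groups had correlations of deviations from -0.22 to 0.43 with a median of 0.079, above 0.1 in 12 of 28 pairs. Differently numbered dams had a median of -0.0070, above 0.1 in 74 of 332 pairs. Thus same-numbered dams were somewhat more alike. Of the 31 dams, 4 correlated best with their own number, a count for which no chance level was computed. The study names no pairing, so the main fit held no block, and whether the numbers pair the dams was not settled. Elsewhere the alternatives kept the direction of both genes.

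Depth is a limit: 8 of 10 members were too low to pass the filter, and the tests cover 2 genes.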
